A study of Bos taurus with 14 samples.

Results

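PRSS2, PEBP4 and TMEM183A are 3 genes picked because their signal fell into separate high and low levels over the mammary arrays and differed between photoperiods. They are measured by 6 of the 24016 tested probe sets: 1 for PRSS2, 1 for PEBP4 and 4 for TMEM183A. The members are all probe sets that the array annotation gives to one of these symbols alone. The genes were chosen by their measured log2 values on these arrays, in their separate levels and in SD against LD cows, so both are given as a description with no test.

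PRSS2 encodes a trypsinogen, the inactive precursor of the digestive protease trypsin. Acinar cells of the pancreas secrete it, enteropeptidase (TMPRSS15) activates it, SPINK1 inhibits it, and trypsin can cleave the protease-activated receptor F2RL1. PEBP4 belongs to the phosphatidylethanolamine-binding proteins, whose founding member PEBP1 holds down the RAF-MEK-ERK kinase cascade, and PEBP4 has been described in human cells as a secreted member of this family. TMEM183A encodes a predicted transmembrane protein.

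The tissue was mammary biopsy of dry, pregnant Holstein cows, not being milked, assigned at random to a photoperiod at dry-off. SD cows had 8 h of light and 16 h of dark, and LD cows had 16 h of light and 8 h of dark. Day counts from calving. There were 4 SD arrays at day -9, 3 SD arrays at day -24, 4 LD arrays at day -9 and 3 LD arrays at day -24, each giving a log2 value per probe set by robust multi-array average (RMA). The labels do not say whether a cow gave both biopsies, so p-values measure the spread between arrays, which may come from fewer animals than arrays. Array medians lay between 6.43 and 6.61 and lower quartiles between 4.47 and 4.73. The milk protein gene CSN2, which marks secretory epithelium, lay between 12.57 and 13.13 on all 14 arrays. A pair of arrays stood apart: SD day -24 replicate 3 and LD day -9 replicate 4 were alone on the low side in 102 probe sets, and results that rest on them are given without them as well. In a bulk biopsy, fewer cells that express a gene and less RNA per cell cannot be told apart.

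PRSS2 had a high level in most SD cows' arrays and in none of the LD arrays. Its log2 value was 9.09, 8.84, 4.28 and 8.34 in SD at day -9 (replicates 1 to 4), against 5.91, 3.55, 4.35 and 3.93 in LD at day -9. In SD at day -24 it was 8.72, 8.71 and 4.00, against 4.24, 3.91 and 3.67 in LD at day -24. The high level was thus present in 5 of 7 SD arrays and 0 of 7 LD arrays, and the 2 remaining SD arrays, both of replicate number 3, lay among the LD values. SD and LD arrays therefore overlapped at both days, where 2.46% of all probe sets at day -9 and 5.67% at day -24 had no overlap. On the high side the probe set (Bt.4404.1.A1_at) stood at percentiles 73.4 to 83.2 of its array, and on the low side at percentiles 12.6 to 41.6. The highest value of the low side was the 5.91 of LD day -9 replicate 1, and without that array the gap between both sides widened to 3.99 log2 units.

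Group means of PRSS2 followed the share of high arrays. They were 7.64 ± 2.26 in SD at day -9 and 4.43 ± 1.04 in LD at day -9 (SD of the replicates, n = 4 each), and 7.14 ± 2.72 in SD at day -24 and 3.94 ± 0.29 in LD at day -24 (SD of the replicates, n = 3 each). Averaged over days the log2 difference of SD minus LD was 3.20, which is 9.21-fold, with 3.20 at each day taken alone. The fold is a lower bound where the low level is background, and 6 of 7 LD arrays had PRSS2 at percentiles 12.6 to 23.3. Without the 2 arrays that stood apart it was 3.91. In size this was the fifth largest of the 24016 probe sets, whose median absolute difference was 0.07. None of the 24016 probe sets passed an adjusted p of 0.05 in that contrast (0%), and 467 (1.94%) had an unadjusted p under 0.05 in limma. The spread of PRSS2 within groups was wide: its pooled within-group SD was 1.83, against a median of 0.24 over all probe sets.

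**Figure D1:**
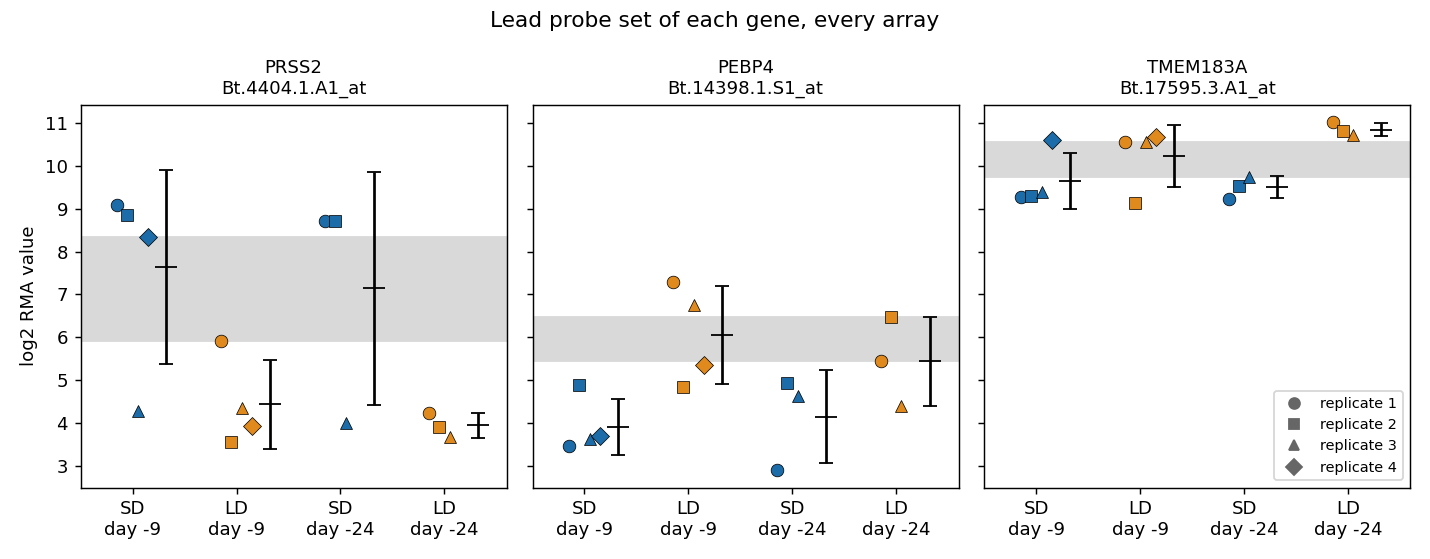
Log2 RMA value (vertical axis) of the lead probe set (of largest gap between arrays) of PRSS2, PEBP4 and TMEM183A on each array, by group (horizontal axis: SD in blue, LD in orange; marker shape gives the replicate number). Bars are the group mean and SD, and the grey band is the largest gap between neighbouring values: 5 SD arrays lie above it for PRSS2, 3 LD arrays for PEBP4, and 1 SD and 6 LD arrays for TMEM183A.

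PEBP4 was lower in SD than in LD on average, with values that spread over a range and overlapped. It was at 3.45, 4.88, 3.62 and 3.69 in SD at day -9, against 7.28, 4.83, 6.74 and 5.35 in LD at day -9. At day -24 it was at 2.90, 4.92 and 4.62 in SD, against 5.44, 6.48 and 4.39 in LD. All 7 SD arrays lay at 4.92 or below, and the 7 LD arrays reached from 4.39 to 7.28. Means were 3.91 ± 0.65 in SD and 6.05 ± 1.15 in LD at day -9 (SD of the replicates, n = 4 each). At day -24 they were 4.15 ± 1.09 in SD and 5.44 ± 1.04 in LD (SD of the replicates, n = 3 each), a difference smaller relative to that spread. The log2 difference averaged over days was -1.72, a 3.28-fold lower level in SD, with -2.14 at day -9 and -1.29 at day -24. Most PEBP4 values were dim: 11 arrays had the probe set (Bt.14398.1.S1_at) at percentiles 3.33 to 35.4 of the array, and the 3 others at 48.6 to 59.0.

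TMEM183A gave separate levels in 1 of its 4 probe sets. Probe set Bt.17595.3.A1_at was at 9.27, 9.30, 9.40 and 10.61 in SD at day -9, against 10.55, 9.14, 10.56 and 10.66 in LD at day -9. At day -24 it was at 9.22, 9.53 and 9.75 in SD, against 11.02, 10.81 and 10.72 in LD. The groups did not overlap at day -24, as for 5.67% of all probe sets with 3 arrays against 3. They overlapped at day -9 through SD replicate 4, the single high SD array, and LD replicate 2, the single low LD array. Means were 9.64 ± 0.65 in SD and 10.23 ± 0.73 in LD at day -9 (SD of the replicates, n = 4 each), and 9.50 ± 0.26 in SD and 10.85 ± 0.16 in LD at day -24 (SD of the replicates, n = 3 each). The difference averaged over days was -0.97, or 1.95-fold lower in SD, with -0.58 at day -9 and -1.35 at day -24. Leaving out LD day -9 replicate 2 gave -1.15, and leaving out SD day -9 replicate 4 gave -1.13.

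The other 3 probe sets of TMEM183A did not show that pattern. Bt.17595.2.S1_at spanned 7.04 to 7.81 in SD arrays, against 7.24 to 8.04 in LD arrays. Bt.17595.2.S1_a_at spanned 8.27 to 8.73 in SD arrays, against 8.19 to 8.75 in LD arrays, and Bt.17595.1.S1_at spanned 8.90 to 9.14 in SD arrays, against 8.59 to 9.17 in LD arrays. Their differences of SD minus LD were -0.07, 0.02 and 0.03, where the first probe set had -0.97. Over the 14 arrays these 3 correlated with each other (Pearson r 0.69 to 0.85, as a description) and not with Bt.17595.3.A1_at (r -0.25 to 0.06). By their names, Bt.17595.3.A1_at and Bt.17595.1.S1_at each have a sequence number of their own, while Bt.17595.2.S1_at and Bt.17595.2.S1_a_at share theirs. A number of its own is thus not particular to Bt.17595.3.A1_at, but its name alone carries A1 where the other 3 carry S1. What this part of the name means for the signal was not analysed here. Which stretch of the transcript each probe set measures was not analysed either. The separate levels thus belong to Bt.17595.3.A1_at and not to the gene as a whole.

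**Figure D2:**
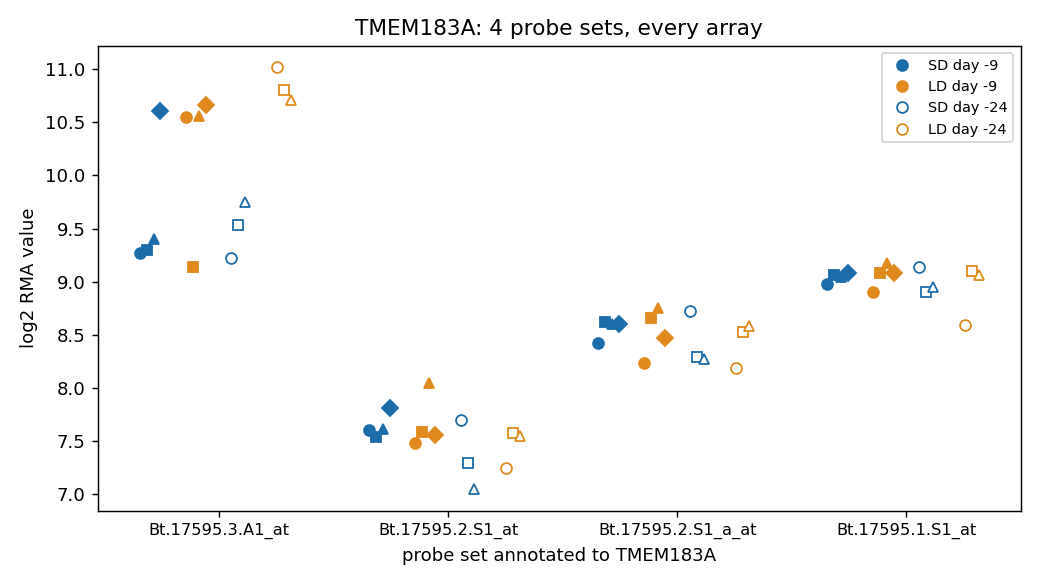
Log2 RMA value (vertical axis) of the 4 probe sets annotated to TMEM183A (horizontal axis) on each array, with SD in blue, LD in orange, day -9 filled and day -24 open, and marker shape for the replicate number. Bt.17595.3.A1_at splits into 7 arrays at 9.75 or below and 7 at 10.55 or above, while the other 3 show no gap above 0.19.

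The label of an on-off gene fitted these 3 genes to different degrees. To measure it, the 14 values of a probe set were sorted and the largest gap between neighbours was taken, with at least 2 arrays on each side. A gap of at least 1 log2 unit is called two-level here. Of the 24016 probe sets 214 were two-level (0.891%), among them PRSS2 and PEBP4. PRSS2 had a gap of 2.42, or 5.37-fold, which put it at rank 20 (0.0833% of probe sets had as large a gap). PEBP4 was just inside the limit with 1.04 at rank 187. TMEM183A Bt.17595.3.A1_at was just outside it with 0.80 at rank 399 (1.66%). Its low side stood at percentiles 83.2 to 89.6 of the array, so neither of its levels was off. Without the 2 arrays that stood apart its gap was 1.02. The other TMEM183A probe sets had gaps of 0.07 to 0.19.

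**Figure D3:**
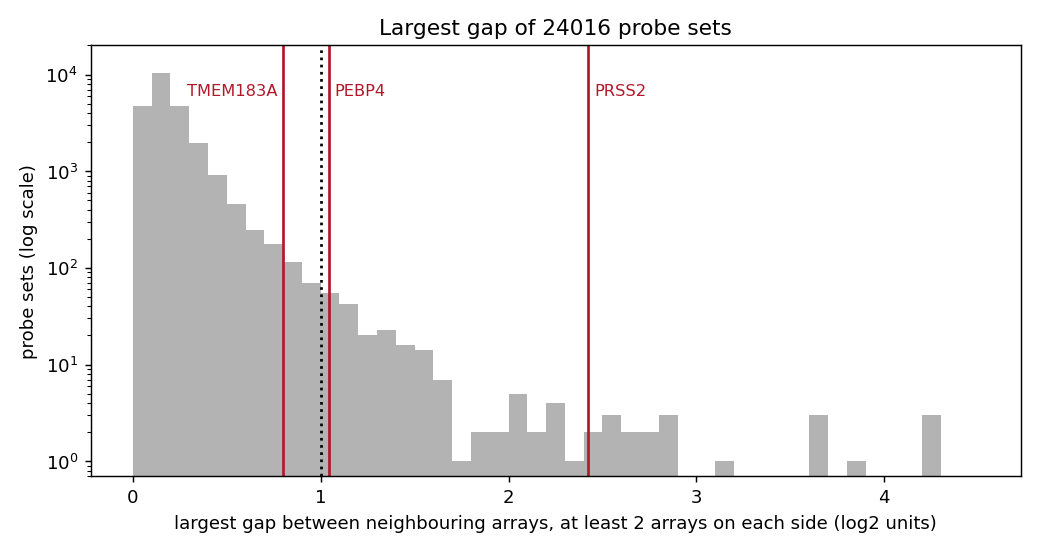
Number of probe sets (vertical axis, log scale) by the largest gap between neighbouring arrays in log2 units (horizontal axis), for 24016 probe sets in bins of 0.1. Red lines mark PRSS2 at 2.42, PEBP4 at 1.04 and TMEM183A Bt.17595.3.A1_at at 0.80, and the dotted line marks the limit of 1.

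Among probe sets with 1 gene symbol, 15 had a gap at least as large as PRSS2, itself included, and 10 of these probe sets, under 7 symbols, belong to the bovine major histocompatibility complex, which presents antigens and varies between animals. The largest gaps belonged to BOLA-DQA1 (4.28), BOLA (4.24) and BOLA-DQA2 (4.22). Another 102 two-level probe sets were those in which only the arrays that stood apart were low. PRSS2 is neither of these kinds. Two-level probe sets with 3 to 11 arrays on the upper side numbered 63.

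The 3 genes did not split the arrays alike. No array was on the upper side for both PRSS2 and PEBP4: 5 were upper for PRSS2 only, 3 for PEBP4 only and 6 for neither. The 3 arrays upper for PEBP4, all LD, were also upper for TMEM183A. PRSS2 and TMEM183A shared their upper side in SD day -9 replicate 4 alone. Within a photoperiod, where 7 arrays give only a rough description, Pearson r between PRSS2 and PEBP4 was -0.10 in SD and 0.78 in LD, where all PRSS2 values are on the low side, and between PEBP4 and TMEM183A it was 0.05 in SD and 0.28 in LD.

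Other probe sets split the arrays in ways close to the members, none alike in all 14. For PRSS2, the split of the class I gene BOLA-N matched in 12 of 14 arrays (r = 0.68) and that of the class II gene BOLA-DQB1, mirrored, in 12 (r = -0.67), where the side sizes alone fix a match of at least 8. For PEBP4, the muscle intermediate filament gene DES matched in 13 of 14 (r = 0.52). The lipid droplet gene CIDEC, an adipocyte marker, matched in 11 (r = 0.40). So did ITIH4 (r = 0.38), DEFB4A (r = 0.37) and HP (r = 0.21). For each of these the side sizes alone fix at least 9. For TMEM183A Bt.17595.3.A1_at, CRTAC1 matched in 13 of 14 (r = 0.79), differing in LD day -24 replicate 2 alone, where at least 7 are fixed. These matches describe 14 arrays that share groups, and were picked as the closest among 104 two-level probe sets with 1 symbol.

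Arrays that carry the same photoperiod and replicate number at both days had alike PRSS2 values in SD. SD number 1 was at 9.09 at day -9 and 8.72 at day -24, SD number 2 at 8.84 and 8.71, and SD number 3 at 4.28 and 4.00. The largest of these 3 differences was 0.38, against a gap of 2.42 between the sides. SD number 3 holds SD day -24 replicate 3, an array that stood apart. Without it the SD pairs left are numbers 1 and 2, both high, with no pair on the low side. In LD, where all 7 arrays were on the low side, the values of a number differed by up to 1.67. TMEM183A Bt.17595.3.A1_at differed by 0.05 to 0.35 within the SD numbers, and in LD by 0.16, 0.47 and, for number 2, by 1.67. PEBP4 kept its side in 0 of 3 LD numbers, and in SD all 7 arrays were on its low side.

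The other 61 two-level probe sets with 3 to 11 arrays on the upper side, members left out, were set beside this. For 6 of 6 arrays at day -24, the day -9 array on the same side most often was of the same photoperiod, and for 4 of 6 also of the same number, with shares between 78.7% and 91.8%. The exceptions were LD day -24 replicate 2, closest to LD day -9 replicate 3 (82.0%), and LD day -24 replicate 3, closest to LD day -9 replicate 4 (78.7%). In the first of these pairs PEBP4 was at 6.74 at day -9 and 6.48 at day -24, TMEM183A at 10.56 and 10.81, and PRSS2 at 4.35 and 3.91. In the second pair PEBP4 was at 5.35 at day -9 and 4.39 at day -24, TMEM183A at 10.66 and 10.72, and PRSS2 at 3.93 and 3.67. LD day -24 replicate 1 was closest to LD day -9 replicate 1 (90.2%), and PEBP4 changed sides between them. There PEBP4 was at 7.28 at day -9 and 5.44 at day -24, TMEM183A at 10.55 and 11.02, and PRSS2 at 5.91 and 4.24. The day -9 array that came next in share reached up to 77.0%. For LD day -24 replicate 1 (77.0%) and SD day -24 replicate 1 (75.4%) that next array was of the other photoperiod. Over all 91 pairs of arrays, members included, the median share was 55.6%. What arrays with alike sides have in common was not tested.

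**Figure D4:**
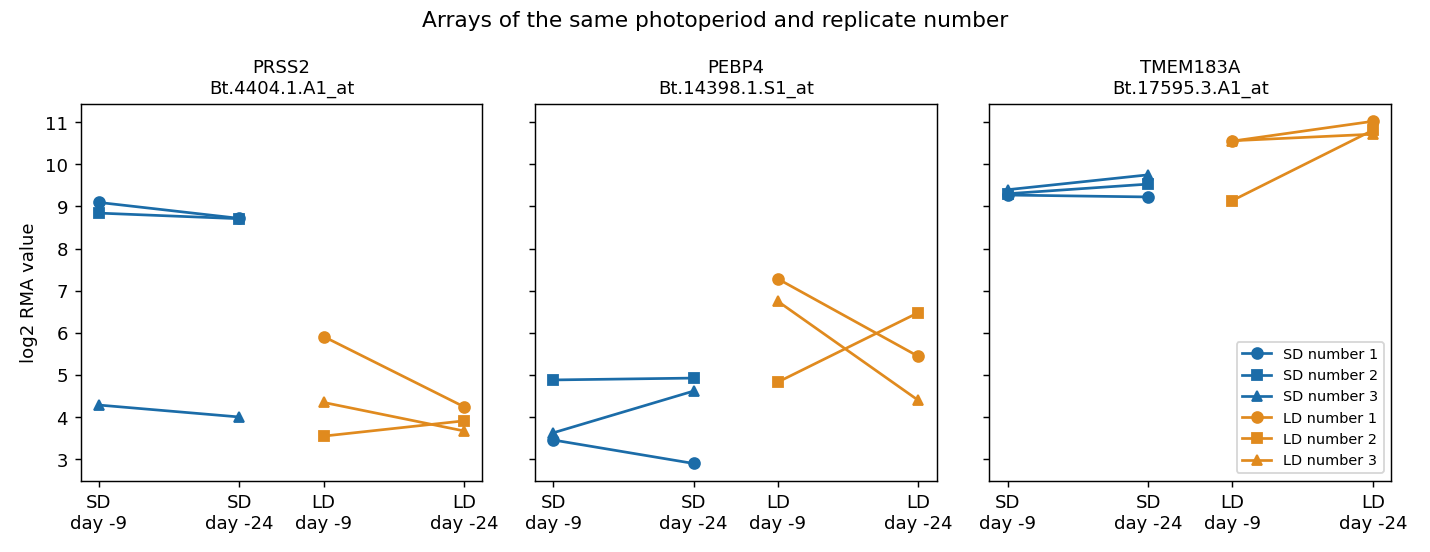
Log2 RMA value (vertical axis) of the lead probe set of each gene at day -9 and day -24 (horizontal axis) for arrays of the same photoperiod and replicate number, joined by a line (SD in blue, LD in orange, marker shape for the number 1 to 3). The 3 SD lines of PRSS2 stay on 1 side each, 2 near 9 and 1 near 4, while the 3 LD lines of PEBP4 all cross its gap.

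Between days, a contrast that did not choose the genes, no member passed the test. In limma over all probe sets, 0 of 24 tests (6 probe sets in 4 contrasts: day -9 minus day -24 in SD, in LD and averaged, and the photoperiod by day interaction) had an adjusted p or an unadjusted p under 0.05. The background was as low after adjustment: 0% of the 24016 probe sets were called in each of the 4, and 4.56%, 7.47%, 7.72% and 4.15% had an unadjusted p under 0.05. PRSS2 averaged 0.50 higher at day -9 than at day -24 (95% interval -1.37 to 2.36, limma adjusted p = 0.900), and its interaction was 0.00 (-3.73 to 3.74, unadjusted p = 0.999). PEBP4 differed between days by 0.19 (-0.82 to 1.21, limma adjusted p = 0.934) and TMEM183A Bt.17595.3.A1_at by -0.24 (-0.81 to 0.34, adjusted p = 0.836). An exact permutation of days within photoperiod, two-sided over 1225 arrangements, gave p = 0.543 for PRSS2, 0.722 for PEBP4 and 0.483 for TMEM183A (0.722 each adjusted over the 3). The sign of the PRSS2 day difference rests on SD day -24 replicate 3, without which it was -0.29. The sign for PEBP4 also turned when SD day -24 replicate 1 (-0.12), LD day -24 replicate 3 (-0.070) or LD day -9 replicate 1 (-0.013) was left out. TMEM183A stood at -0.40 and -0.057 without its odd arrays, SD day -9 replicate 4 and LD day -9 replicate 2.

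The smallest unadjusted p of a member in any of these tests belonged to a TMEM183A probe set outside the split. Bt.17595.2.S1_at averaged 7.65 at day -9 and 7.40 at day -24, a difference of 0.25 (95% interval -0.01 to 0.52, limma unadjusted p = 0.0604, adjusted p = 0.654).

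Of 15 measured genes of the acinar list, 12 had a mean under 4.55, the lower quartile of all probe sets, among them the protease genes CPA1, CPB1, CTRC, CELA1 and CELA3B. The other 3 were AMY2B, an amylase gene at 7.91 to 8.95 on all arrays, GP2, a membrane glycoprotein gene, and TMPRSS15, the trypsinogen activator. GP2 ranged from 5.74 to 10.98 and averaged 8.81 in SD and 8.77 in LD at day -9, and 7.04 in SD and 8.04 in LD at day -24. TMPRSS15 ranged from 4.20 to 7.55 and averaged 5.54 in SD and 6.31 in LD at day -9, and 5.12 in SD and 5.28 in LD at day -24. None of the 15 was two-level. The mean level of the list was 4.12 to 4.66 in SD arrays, against 4.15 to 4.84 in LD arrays. Its highest value was in LD day -24 replicate 1, the array with the highest lower quartile (4.73, where the others had at most 4.59). Between days 4 of 15 were above 0 and 11 below, with a median of -0.16 where all probe sets had 0.00, and 0 were called. Without LD day -24 replicate 1 the median was -0.033. The smallest p-values were those of the dim genes CELA1 (-0.47, limma unadjusted p = 0.00068, adjusted p = 0.636) and CTRC (-0.38, limma unadjusted p = 0.0020, adjusted p = 0.636), the 2 of 15 under an unadjusted p of 0.05, where all probe sets had 7.72%.

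Inhibitors and receptors of trypsin were measured by 14 genes, 0 of them called between days, with a median of 0.16 and 9 above 0 (50.2% of all probe sets were above 0). The antithrombin gene SERPINC1 had the smallest p (0.45, limma unadjusted p = 0.0304, adjusted p = 0.637). Leaving out SD day -24 replicate 3 took the median to 0.047, and LD day -24 replicates 2 and 1 took it to 0.063 and 0.074. It was 0.24 when SD day -24 replicate 2 or LD day -24 replicate 3 was left out. SPINK1, the pancreatic trypsin inhibitor, averaged 3.70, under the lower quartile. The inhibitor gene SERPINA1 ranged from 6.74 to 9.99 and the trypsin receptor gene F2RL1 from 6.25 to 9.59. The thrombin receptor gene F2R was two-level with a gap of 1.30 and 12 arrays on the upper side. The 102 probe sets in which only the arrays that stood apart were low have the same side sizes. F2R averaged 7.48 in SD day -24 and 7.68 in LD day -9, the groups that hold those arrays. It averaged 8.35 in SD day -9 and 7.95 in LD day -24. Which arrays were low for F2R is not given here. For SD minus LD, 4 of 14 were above 0, with a median of -0.07 (52.2% of all probe sets were above 0). Of 14 further serine proteases of epithelium and the plasmin system, 11 were above 0 between days, with a median of 0.08 and 0 calls, and 2 had an unadjusted p under 0.05: HPN (0.40) and ST14 (0.29), both membrane-bound proteases, where 7.72% of all probe sets did.

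The PEBP family and RAF-MEK-ERK cascade had 11 measured genes, with 0 two-level members. Between days 6 were above 0, with a median of 0.04 and 0 calls. Its mean level was 8.15 to 8.25 in SD arrays, against 8.13 to 8.25 in LD arrays.

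By the gene order of RefSeq assembly ARS-UCD2.0, PRSS2 stands among segments of a T cell receptor locus: V segments lie on both sides, with a C region next to it. T and NK cell markers (9 of 9 measured) had a mean level of 7.26 to 8.09 in SD and 7.32 to 8.13 in LD. The SD arrays at both ends of that range were replicate 1 at day -9, lowest and high in PRSS2, and replicate 3 at day -9, highest and low in PRSS2. Replicate 2, high in PRSS2 at both days, had marker levels of 8.01 and 8.06, close to that highest value. Replicate 4 at day -9 (7.53) and replicate 1 at day -24 (7.61) were high in PRSS2. Replicate 3 at day -24 (8.02) was low in PRSS2. The part of these cells in the PRSS2 levels was not tested. The T cell marker CD3E lay between 8.40 and 9.38 on all arrays. The protein-coding neighbour LOC786254 had no probe set under its symbol, and whether the PRSS2 probes also match related trypsin genes was not analysed here. The nearest measured neighbours of PRSS2 were 14 or more genes away. Of the measured neighbours, 6 around PRSS2, 6 around PEBP4 and 3 on one side of TMEM183A, none was two-level. MYBPH, a muscle protein gene near TMEM183A, had the largest gap (0.77, range 4.00 to 6.76).

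Markers of skeletal muscle, of which 6 of 8 were measured, had a mean level of 5.0 to 5.41 in SD and 5.19 to 5.39 in LD. ACTA1, MYL1 and MB averaged 4.21, 3.70 and 3.98, under the lower quartile, and TNNC2, TNNT3 and CKM averaged 4.70, 5.70 and 9.29, above it. Adipocyte markers (7 of 8 measured) had a mean level of 5.72 to 6.71 in SD, against 5.87 to 6.74 in LD. Macrophage markers (6 of 8 measured) had a mean level of 8.23 to 8.85 in SD, against 8.66 to 9.59 in LD. For SD minus LD 1 of these 6 was above 0, with a median of -0.26. Neutrophil markers (6 of 8 measured) had 6.13 to 7.62 in SD, against 6.6 to 7.74 in LD, with 1 of 6 above 0 and a median of -0.26. Fibroblast and matrix markers (8 of 8) had 10.10 to 10.77 in SD, against 10.44 to 10.86 in LD, with 1 of 8 above 0 and a median of -0.11. For SD minus LD, 52.2% of all probe sets were above 0. Other lists went the other way, with 7 of 7 myoepithelial, 7 of 8 endothelial and 5 of 6 erythrocyte markers above 0. Luminal epithelial markers had 6 of 10, T and NK 5 of 9, and adipocyte 3 of 7. Skeletal muscle had 2 of 6, B and plasma 2 of 5, and skin keratinocyte 1 of 4. The mean was under the lower quartile for 4 of 6 erythrocyte and 3 of 7 adipocyte markers. It was so for 1 marker each of the neutrophil, endothelial, T and NK, and skin keratinocyte lists. The part of these cell types in the lower PEBP4 of SD arrays was not tested.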

How the data were processed

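Mammary biopsies were measured on 14 Affymetrix bovine arrays. The authors summarised them by RMA, per the submitters' processing notes, with the software version not given in the sources used here. The deposited values, between 1.49 and 14.0, have the range of log2 RMA values and were used as they stand. Of 24128 probe sets, 112 controls were left out. In the GEO platform annotation, 13292 of the other 24016 have 1 symbol, 86 several and 10638 none. Groups came from sample titles.

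In R 4.3.3, limma 3.58.1 fitted 4 group means over all arrays, two-sided, with Benjamini-Hochberg adjustment over 24016 probe sets at 0.05, and was tested on simulated data. Arrays have no read depth, so their number limits the precision. A list used 1 probe set per gene, that of highest mean, and got no test. The lead probe set of a gene has its largest gap. Named genes were those of the closest array split, of smallest p or widest range in a list, of the largest gaps, and the neighbours. AMY2B and marker genes were named after their values were seen. Members, lists and tests were chosen with earlier results of these data known. Alternatives covered variance priors, a signal filter, array weights, centring, blocks, gap limits and left-out arrays.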

Additional observations from a re-analysis of the deposited data

Results flagged for a closer look

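In the groups of 4 arrays, an array was taken as far from the others when its distance to the nearest exceeded Dixon's critical share of the group's range, which chance passes in about 1 in 20 groups. The 6 probe sets in both day -9 groups gave 12 checks, and 5 were past it. PRSS2 was at 4.28 in SD day -9 replicate 3, where the nearest array was at 8.34. PEBP4 was at 4.88 in SD day -9 replicate 2, with the nearest at 3.69. TMEM183A Bt.17595.3.A1_at was at 10.61 in SD day -9 replicate 4 (nearest 9.40) and at 9.14 in LD day -9 replicate 2 (nearest 10.55). TMEM183A Bt.17595.2.S1_a_at was at 8.42 in SD day -9 replicate 1 (nearest 8.60), within a group range of 0.19. Over all probe sets 6.64% of such groups were past it. The genes had been picked for separate levels, so the 5 of 12 describe that choice and test nothing.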

How the results depend on the processing

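SD minus LD kept its sign for the 3 lead probe sets in all 18 alternatives each: 2.81 to 3.99 for PRSS2, -1.98 to -1.40 for PEBP4 and -1.15 to -0.89 for TMEM183A, left-out arrays included. The genes were chosen on this contrast, so the kept sign describes that choice and tests nothing. The replicate block, counted among the 18, could not change these differences, since each number occurs equally often in SD and LD at each day. The day difference of PRSS2 was -0.023 with array weights and -0.21 without both arrays that stood apart, an alternative added after seeing the data. It was between -0.29 and 1.05 without single arrays. That of PEBP4 lay between -0.12 and 0.45 without single arrays, and that of TMEM183A between -0.40 and -0.06. In SD, the day difference of PRSS2 was -0.87 with array weights and -1.07 without both arrays that stood apart (-1.07 to 1.62 without single arrays). That of PEBP4 in SD was 0.28 and 0.0027 (-0.86 to 0.16). The interaction of PRSS2, near 0, was -1.70 with array weights, -1.73 without both arrays that stood apart and -1.57 to 1.12 without single arrays. No lead probe set was called in any of these, and the cause of the sign changes was not tested. In SD, 1 probe set was called between days without both arrays that stood apart, and 0 to 1 without single arrays. The full data gave 0.

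Replicate numbers were not taken as pairs: deviations of same-numbered arrays at both days correlated by 0.04, 0.22 and 0.25 in SD and 0.33, 0.19 and -0.31 in LD. With the replicate block, 0 probe sets were called in each of the 4 contrasts, and the day difference in SD of TMEM183A was -0.090, or -0.18 with the block within photoperiod (-0.18 to 0.27 without single arrays). With the block within photoperiod the interaction of PRSS2 was -0.40. The averaged day difference of PRSS2 was 0.46 with either block (limma unadjusted p = 0.525, or 0.0809 within photoperiod). That of TMEM183A was -0.47 with either block (limma unadjusted p = 0.0576, or 0.0413 within photoperiod), and in LD alone it was -0.85 (0.0177), or -0.76 (0.0239). Both blocks join arrays by number, and LD number 2 differed by -1.67 between days. In the two-level probe sets, LD day -24 replicates 2 and 3 were closest to LD day -9 replicates 3 and 4, so these p-values rest on number pairs that are in doubt. No other sign and no adjusted call of the lead probe sets changed under the block.

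Two-level probe sets numbered 58 with a gap of at least 1.5 and 32 with at least 2. They numbered 747 with at least 1 array per side and 67 with at least 3. There were 136 without both arrays that stood apart, and 122 to 228 without single arrays. The number was 122 when LD day -9 replicate 4 was left out and 126 when SD day -24 replicate 3 was. The median of the acinar list between days was 0.73 with the filter on low signal, which leaves its brighter members. That of the PEBP family and RAF-MEK-ERK list was 0.091 with array weights, -0.0056 with arrays centred on their median and -0.028 to 0.095 without single arrays.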
